A study of Mus musculus with 8 samples.

Results

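Integrins are the cell surface receptors with which leukocytes hold on to other cells and to the matrix. The genes described here are 10 integrin subunit genes of leukocytes in leukemic mouse bone marrow: the alpha chains Itga4, Itga5, Itga6, Itgal, Itgam, Itgax and Itgav and the beta chains Itgb1, Itgb2 and Itgb7. They were chosen by symbol as members of this family, with earlier results of these data known, out of 23997 genes in the expression table, which lists 27 integrin subunit genes in all. All 10 were found and all 10 passed the filter on low values.

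Each integrin is a pair of 1 alpha and 1 beta chain. Itgb2 pairs with Itgal (LFA-1, CD11a/CD18), which binds ICAM proteins on other cells, with Itgam (Mac-1, CD11b/CD18), the complement receptor of neutrophils and monocytes, and with Itgax (CD11c/CD18), high on dendritic cells and some macrophages. Itgb1 pairs with Itga4, which binds VCAM-1 and fibronectin and holds blood progenitors in the marrow, with Itga5, a fibronectin receptor, with Itga6, a laminin receptor, and with Itgav, whose integrins bind vitronectin and other matrix proteins. Itgb7 pairs with Itga4 and binds MAdCAM-1, the address molecule of gut vessels. Leukocyte integrins rest in a bent, inactive form until talin and kindlin, recruited through the small GTPase Rap1, bind the beta chain.

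The RNA came from the marrow of lethally irradiated C57BL/6 mice, sequenced after they had died of leukemia grown from transplanted, transduced marrow. The first group carried the fusion gene AML1-ETO together with Meis2 (AE+Meis2, 3 libraries, median latency 171 days), the second AML1-ETO9a, a truncated splice form, together with Meis2 (AE9a+Meis2, 3 libraries, 102 days), and the third AML1-ETO9a without added Meis2 (AE9a, 2 libraries, 138 days). In all groups the donor marrow was taken 4 days after 5-fluorouracil, grown with IL3, IL6 and SCF, and transplanted 48 hours after transduction. AML1-ETO joins the blood regulator RUNX1 to the corepressor RUNX1T1 (ETO), and Meis2 is a homeobox factor of the TALE class. Every group carries a form of the fusion, so none is a normal marrow, and the marrow of a recipient also holds normal blood cells and stroma of donor and host. The labels do not tie a library to a donor, recipient or batch, so the p-values reflect only how far these libraries spread, which may be technical. In bulk marrow, fewer cells of a type and less RNA per cell cannot be told apart.

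Some libraries stood apart. Runx1t1, the ETO part of the fusion, was at 21.6 FPKM in the library labelled AE+Meis2 replicate 1, against 223 and 218 FPKM in AE+Meis2 replicates 2 and 3 and 10.3 to 26.8 FPKM in the other 5 libraries. Its Meis2 level of 13.1 FPKM lay within the AE9a range of 6.99 to 13.2 FPKM, so both transduced genes go against its label, and log2 differences of single genes in AE+Meis2 are given with and without it. AE+Meis2 replicates 2 and 3 had 38.2 and 81.5 FPKM of Meis2, and the 3 AE9a+Meis2 libraries 621, 604 and 1277 FPKM, so the groups with added Meis2 differ in its level as well as in the form of the fusion. AE9a+Meis2 replicate 3 and AE9a replicate 1 had values above 0 in 84.1% and 72.1% of 1543 genes of families that blood cells do not use, against 3.37% to 6.61% in the other 6 libraries. The leukocyte gene Ptprc (CD45) was at 39.4 FPKM or more in every library and the myeloid receptor Csf1r at 39.0 FPKM or more. FPKM are fragments scaled by transcript length and library size, so levels of different genes can be set side by side.

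Promoter sequence is shown for Itgam, Itga4 and Itga5, because these are the members whose levels separated 2 of the groups completely. Each line holds the 250 bases before the RefSeq gene start on the gene's own strand (build GRCm38.p6), and capitals mark matches to the searched motifs. The Itgam window is chr7:128062390-128062639 (plus strand), the Itga4 window chr2:79255176-79255425 (plus strand) and the Itga5 window chr15:103366792-103367041 (minus strand).

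Itgam: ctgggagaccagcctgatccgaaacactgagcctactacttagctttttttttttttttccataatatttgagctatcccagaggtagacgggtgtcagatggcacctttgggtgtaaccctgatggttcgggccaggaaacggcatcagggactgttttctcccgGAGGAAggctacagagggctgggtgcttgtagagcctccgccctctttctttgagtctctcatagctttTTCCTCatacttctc

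Itga4: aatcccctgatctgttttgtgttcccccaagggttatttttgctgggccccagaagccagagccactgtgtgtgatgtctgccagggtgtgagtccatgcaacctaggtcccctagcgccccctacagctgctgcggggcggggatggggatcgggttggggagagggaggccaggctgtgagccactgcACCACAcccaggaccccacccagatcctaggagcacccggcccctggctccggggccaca

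Itga5: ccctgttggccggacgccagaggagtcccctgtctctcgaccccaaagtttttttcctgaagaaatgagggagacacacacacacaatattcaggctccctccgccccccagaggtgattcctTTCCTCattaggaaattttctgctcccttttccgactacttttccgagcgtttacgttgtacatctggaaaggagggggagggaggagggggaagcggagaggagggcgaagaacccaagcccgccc

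Searched on both strands were TGTGGT, the letters that RUNX proteins bind, GAGGAA, the core of the PU-box read by the myeloid factor PU.1, and TGACAG, bound by TALE factors. A window was found for 7 of the 10 members, and no entry was found for Itgal, Itgb2 and Itga6. The Itga4 window held the RUNX letters on the minus strand, 60 bases before the start, and it was the only member window of the 7 with them. The PU-box core stood 84 and 15 bases before the start of Itgam, on opposite strands, and 127 bases before the start of Itga5 on the minus strand. It was also found in the windows of Itgav and Itgb1, and none of the 3 motifs was found in those of Itgax and Itgb7. No member window held the TALE letters. Among 32851 windows of the same length, 14.05% held the RUNX letters, 23.3% the PU-box core and 15.9% the TALE letters, and no matches in the member windows overlapped. A match describes the letters and is not a measured binding site.

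The 3 beta chains and the alpha chains Itgam and Itga4 were the most abundant members. By the median over the 8 libraries the order was Itgb2 at 129.9 FPKM, Itgb1 at 99.8, Itgam at 95.2, Itgb7 at 66.8, Itga4 at 65.9, Itgal at 34.4, Itga5 at 13.2, Itga6 at 11.97, Itgav at 6.28 and Itgax at 3.38 FPKM. Neighbours in this order had overlapping ranges over the libraries, except Itgal and Itga5: the lowest Itgal value, 25.2 FPKM, lay above the highest Itga5 value, 17.3 FPKM. By their mean level, Itgb2, Itgam, Itgb1, Itga4 and Itgb7 lay between the 90.6th and the 96.0th percentile of the genes tested, and Itgax, the lowest, at the 29.5th percentile. The members differed in how far they ranged over the libraries, by 45.3-fold for Itgax, 12.7-fold for Itgam, 10.8-fold for Itgb7, 7.81-fold for Itgal and 7.38-fold for Itgb2. Itgb1, the common beta chain, ranged least, by 2.29-fold.

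For 9 of the 10 members the ratio of the highest to the lowest library was widest inside AE+Meis2. The exception was Itgax, with a ratio of 2.46 in AE+Meis2, 7.73 in AE9a+Meis2 and 8.35 in AE9a. Both the highest and the lowest library lay in AE+Meis2 for 5 of the 10 members. The share of all genes with these patterns was not counted, and AE9a has only 2 libraries. Pearson's r between libraries on the log2 scale was 0.884 to 0.933 within AE+Meis2. It was 0.925 to 0.958 within AE9a+Meis2 and 0.925 within AE9a. AE+Meis2 replicate 3 held the highest value of 4 members, and AE+Meis2 replicate 2 the lowest value of 5. Their totals were unequal as well. Replicate 3 summed to 1.09e+06 FPKM over all genes, 20.5% of it in small RNA entries, and replicate 2 to 861499 FPKM, with 37.3%. The part of this scale in the extremes was not tested. AE+Meis2 replicates 2 and 3 are opposite in their other cell markers too, as described with the marker lists.

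**Figure D1:**
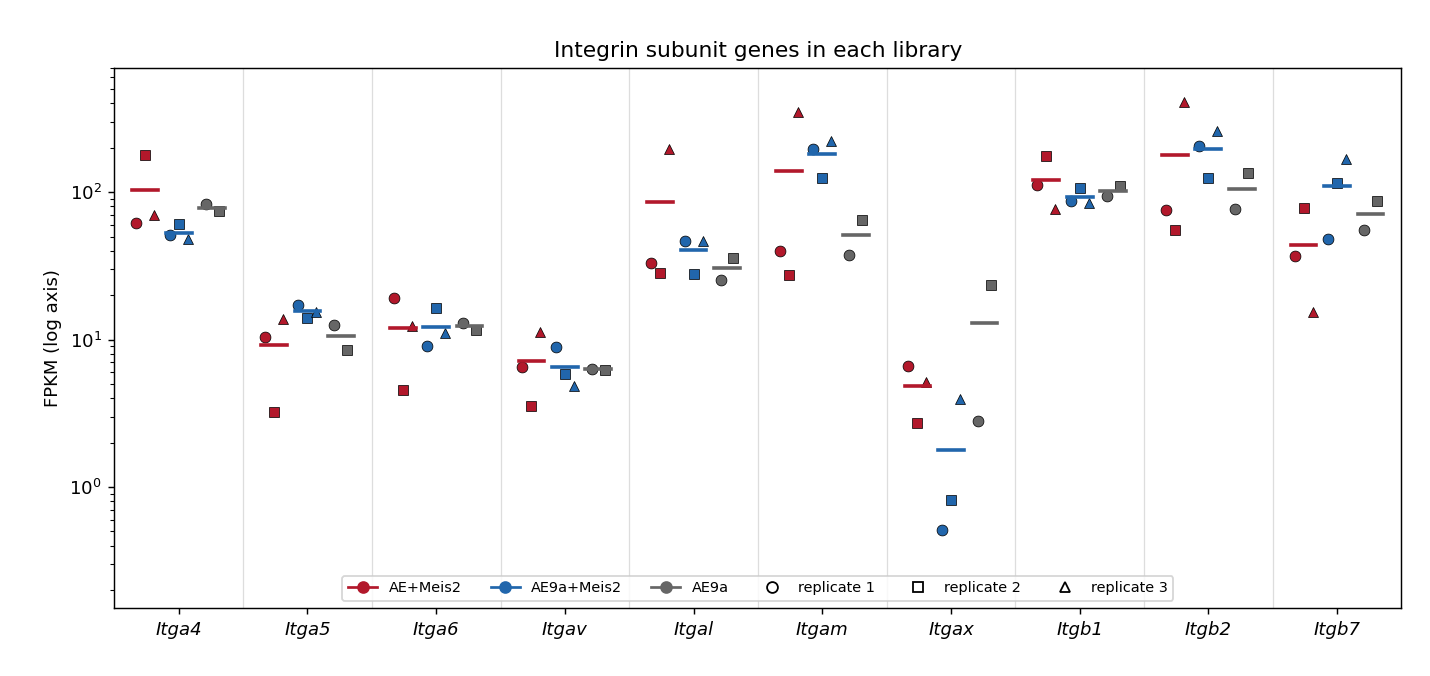
FPKM (log axis) of the 10 integrin subunit genes in each of the 8 libraries, by group (red AE+Meis2, blue AE9a+Meis2, grey AE9a), with the replicate number as the symbol and a bar at the group mean. The wide spread of the red points, such as 27.6 to 350.2 FPKM for Itgam, can be compared with the close blue and grey points of Itga4 and Itgam.

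Itgb2 (chromosome 10, 77530252 to 77565708), the shared beta chain of the leukocyte-only integrins, had 76.0, 55.2 and 407 FPKM in AE+Meis2, 205, 126 and 261 in AE9a+Meis2, and 76.3 and 134 in AE9a. All groups overlapped, and AE+Meis2 replicate 3 alone was above every other library. On the log2(FPKM + 1) scale, Itgb2 differed by 0.89 ± 0.82 (SE) between AE9a+Meis2 and AE9a, by -0.65 ± 0.73 between AE+Meis2 and AE9a+Meis2 and by 0.24 ± 0.82 between AE+Meis2 and AE9a, and none of these passed (limma, Benjamini-Hochberg adjusted p = 1, 0.87 and 0.98). Leaving out the library labelled AE+Meis2 replicate 1 made the last 2 differences -0.33 and 0.57.

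Itgam (chromosome 7, 128062640 to 128118491), which codes for CD11b, had 39.98, 27.6 and 350.2 FPKM in AE+Meis2, 195, 125 and 221 in AE9a+Meis2, and 37.4 and 65.0 in AE9a. All 3 AE9a+Meis2 libraries lay above both AE9a libraries, while the AE+Meis2 libraries fell on either side of the AE9a+Meis2 values. The difference between AE9a+Meis2 and AE9a was 1.81 ± 0.99 (95% interval -0.51 to 4.13), the largest of any member in this direction, and it did not pass (limma unadjusted p = 0.108, adjusted p = 1). AE+Meis2 differed from AE9a+Meis2 by -1.25 ± 0.88 (limma adjusted p = 0.80) and from AE9a by 0.56 ± 0.99 (0.97). AE+Meis2 replicate 3 decides these values: without it, AE+Meis2 differed from AE9a+Meis2 by -2.37 (limma adjusted p = 0.10, the lowest of any member in any setting tried) and from AE9a by -0.56. Without the library labelled AE+Meis2 replicate 1, AE+Meis2 differed from AE9a+Meis2 by -0.82 and from AE9a by 0.99. Without AE9a+Meis2 replicate 3 and AE9a replicate 1 together, AE9a+Meis2 differed from AE9a by 1.26.

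Itgal (chromosome 7, 127296260 to 127335138), the alpha chain of LFA-1, had 32.8, 28.4 and 197 FPKM in AE+Meis2, 46.5, 27.7 and 46.7 in AE9a+Meis2, and 25.2 and 36.0 in AE9a. The groups overlapped: 7 libraries lay between 25.2 and 46.7 FPKM, with AE+Meis2 replicate 3 far above. The differences were 0.37 ± 0.78 for AE9a+Meis2 over AE9a, 0.53 ± 0.70 for AE+Meis2 over AE9a+Meis2 and 0.90 ± 0.78 for AE+Meis2 over AE9a (limma adjusted p = 1, 0.89 and 0.95). Without AE+Meis2 replicate 3, the second was -0.35 and the third 0.02. Without the library labelled AE+Meis2 replicate 1, they were 0.92 and 1.29.

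Itgax (chromosome 7, 128129547 to 128150657), which codes for CD11c, lies 11.1 kb beyond the end of Itgam on the same strand. It had 6.64, 2.70 and 5.15 FPKM in AE+Meis2, 0.514, 0.819 and 3.97 in AE9a+Meis2, and 2.79 and 23.3 in AE9a. AE9a replicate 2 was the highest and AE9a+Meis2 replicates 1 and 2 the lowest, and AE9a+Meis2 replicate 3 lay between both AE9a libraries, so the groups overlapped. Itgax had the only unadjusted p under 0.05 among the members: AE9a+Meis2 over AE9a differed by -2.00 ± 0.84 (limma unadjusted p = 0.0478, adjusted p = 1). This value rested on AE9a replicate 2, without which it was -0.66; without AE9a replicate 1 it was -3.34, and without both AE9a replicate 1 and AE9a+Meis2 replicate 3 it was -3.87 (limma adjusted p = 0.78). AE+Meis2 differed from AE9a+Meis2 by 1.22 ± 0.75 (limma adjusted p = 0.77) and from AE9a by -0.78 ± 0.84 (0.95), which became 1.00 and -1.01 without the library labelled AE+Meis2 replicate 1.

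Although the levels of the Itgb2 partners ranged widely, their balance separated AE9a+Meis2 from the other groups. Itgam made up 50.3%, 47.0% and 63.4% of the summed FPKM of Itgal, Itgam and Itgax in AE+Meis2, 80.6%, 81.5% and 81.3% in AE9a+Meis2, and 57.2% and 52.3% in AE9a. The 3 AE9a+Meis2 libraries lay within 1 percentage point of each other and above every other library. Itgam over Itgal, a ratio of FPKM, was 1.22, 0.97 and 1.78 in AE+Meis2, 4.20, 4.53 and 4.73 in AE9a+Meis2, and 1.49 and 1.81 in AE9a. Its mean was 4.49 ± 0.27 in AE9a+Meis2 (SD, n = 3) and 1.65 ± 0.23 in AE9a (SD, n = 2), with 1.32 ± 0.41 in AE+Meis2 (SD, n = 3). Several ratios of members were computed, and they were compared without a test. The share of other gene pairs whose ratio separates a group was not counted, here or below. Unlike the level of Itgam, the ratio in AE+Meis2 replicate 3 was below all 3 AE9a+Meis2 values, as was that of the library labelled AE+Meis2 replicate 1.

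**Figure D2:**
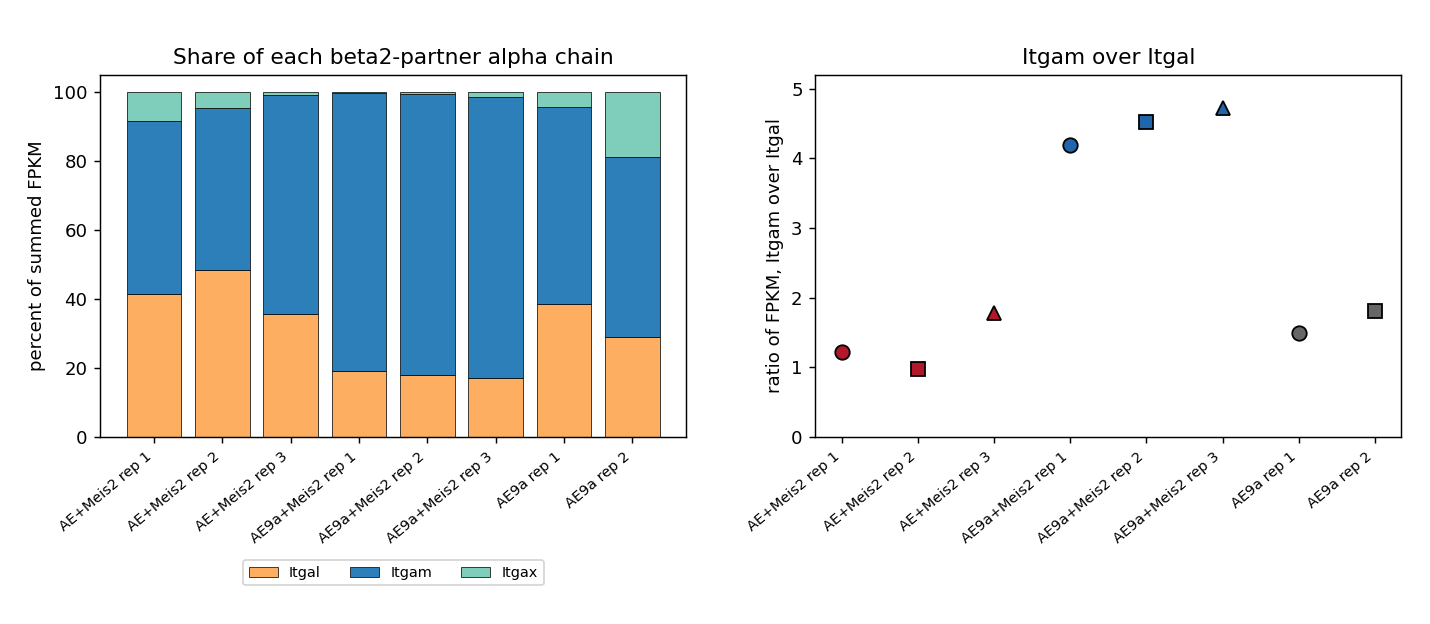
Left, the percent of the summed FPKM of Itgal, Itgam and Itgax that each alpha chain held in each library. Right, the ratio of Itgam to Itgal in FPKM (red AE+Meis2, blue AE9a+Meis2, grey AE9a): the 3 AE9a+Meis2 libraries sit between 4.20 and 4.73 and the other 5 between 0.97 and 1.81.

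The alpha chains and their beta chain kept close to each other in amount. The summed FPKM of Itgal, Itgam and Itgax over that of Itgb2 was 1.05, 1.06 and 1.36 in AE+Meis2, 1.18, 1.23 and 1.04 in AE9a+Meis2, and 0.858 and 0.925 in AE9a. This ratio ranged 1.58-fold over the 8 libraries, while Itgb2 itself ranged 7.38-fold. The points share their libraries and their scaling, and no test was made.

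Among the partners of Itgb1, Itga4 and Itga5 differed in opposite directions between AE+Meis2 and AE9a+Meis2. Itga4 (chromosome 2, 79255426 to 79333123), the alpha chain that holds progenitors to VCAM-1, had 62.0, 179.7 and 69.8 FPKM in AE+Meis2, 50.8, 60.4 and 48.3 in AE9a+Meis2, and 83.3 and 74.0 in AE9a. All AE9a+Meis2 libraries were below all libraries of both other groups, though the gap to the library labelled AE+Meis2 replicate 1 was small. The log2 difference was -0.56 ± 0.43 for AE9a+Meis2 over AE9a, 0.79 ± 0.39 for AE+Meis2 over AE9a+Meis2 and 0.23 ± 0.43 for AE+Meis2 over AE9a (limma adjusted p = 1, 0.73 and 0.98), so none passed. Leaving out the library labelled AE+Meis2 replicate 1 made the last 2 1.07 (limma adjusted p = 0.50) and 0.51, and without AE+Meis2 replicate 2, the highest, they were 0.31 and -0.25.

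Itga5 (chromosome 15, 103344286 to 103366763), the alpha chain of the classical fibronectin receptor, had 10.5, 3.25 and 13.9 FPKM in AE+Meis2, 17.3, 13.96 and 15.4 in AE9a+Meis2, and 12.6 and 8.48 in AE9a. The AE9a+Meis2 libraries were the 3 highest, with AE+Meis2 replicate 3 just under the lowest of them, and AE+Meis2 replicate 2 was the lowest of all. The differences were 0.54 ± 0.51 for AE9a+Meis2 over AE9a, -0.88 ± 0.46 for AE+Meis2 over AE9a+Meis2 and -0.34 ± 0.51 for AE+Meis2 over AE9a (limma adjusted p = 1, 0.74 and 0.97). Without AE+Meis2 replicate 2 the last 2 were -0.34 and 0.20, and without the library labelled AE+Meis2 replicate 1 they were -1.05 and -0.52. Itga4 over Itga5 in FPKM was 5.92, 55.3 and 5.04 in AE+Meis2, 2.95, 4.33 and 3.13 in AE9a+Meis2, and 6.62 and 8.72 in AE9a. That the ratio was lowest in the 3 AE9a+Meis2 libraries follows from Itga4 being lowest and Itga5 highest there.

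Itgb1 (chromosome 8, 128685654 to 128733200) itself was the steadiest member, at 112, 176 and 76.9 FPKM in AE+Meis2, 87.3, 106 and 84.4 in AE9a+Meis2, and 93.7 and 110.0 in AE9a. The groups overlapped, and the 5 libraries with AE9a stayed between 84.4 and 110.0 FPKM. Its differences lay between -0.14 ± 0.34 for AE9a+Meis2 over AE9a and 0.32 ± 0.30 for AE+Meis2 over AE9a+Meis2 (limma adjusted p = 1 and 0.84), with 0.18 ± 0.34 for AE+Meis2 over AE9a (0.98). The differences of AE+Meis2 were 0.34 from AE9a+Meis2 and 0.20 from AE9a once its doubtful replicate 1 was left out. Itga4 amounted to 0.555, 1.02 and 0.907 of Itgb1 in AE+Meis2, to 0.583, 0.570 and 0.572 in AE9a+Meis2 and to 0.889 and 0.672 in AE9a, as a ratio of FPKM.

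Itga6 (chromosome 2, 71745616 to 71858416), the laminin receptor chain, had 19.2, 4.56 and 12.4 FPKM in AE+Meis2, 9.05, 16.4 and 11.03 in AE9a+Meis2, and 12.995 and 11.6 in AE9a. Its group means were 12.03 ± 7.32 FPKM in AE+Meis2 (SD, n = 3), 12.1 ± 3.79 in AE9a+Meis2 (SD, n = 3) and 12.3 ± 1.00 in AE9a (SD, n = 2), and the groups overlapped fully. Itgav (chromosome 2, 83724397 to 83806916) had 6.51, 3.56 and 11.3 FPKM in AE+Meis2, 8.90, 5.88 and 4.85 in AE9a+Meis2, and 6.35 and 6.20 in AE9a, again with full overlap. The 95% intervals of the differences between AE9a+Meis2 and AE9a were -1.28 to 1.18 for Itga6 and -0.997 to 1.03 for Itgav. Both intervals hold differences of about 1 log2 unit in either direction. With replicate 1 of AE+Meis2 left out, Itga6 differed by -0.57 and Itgav by 0.023 between AE+Meis2 and AE9a+Meis2, and by -0.62 and 0.039 between AE+Meis2 and AE9a.

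Itgb7 (chromosome 15, 102215995 to 102231944), the beta chain of the gut-homing integrin, had 37.1, 78.2 and 15.4 FPKM in AE+Meis2, 47.9, 115 and 167 in AE9a+Meis2, and 55.4 and 87.2 in AE9a. AE+Meis2 replicate 3, the library highest in Itgb2, was the lowest here, and all groups overlapped. AE+Meis2 over AE9a+Meis2 differed by -1.42 ± 0.65 (95% interval -2.96 to 0.11, limma adjusted p = 0.72), AE+Meis2 over AE9a by -0.94 ± 0.73 (0.95) and AE9a+Meis2 over AE9a by 0.48 ± 0.73 (1). Without AE+Meis2 replicate 3 the difference between AE+Meis2 and AE9a+Meis2 was -0.84, and without the library labelled AE+Meis2 replicate 1 it was -1.45, with -0.97 for AE+Meis2 over AE9a. Itgb7 over Itgb1, both partners of Itga4, was 0.332, 0.444 and 0.201 in AE+Meis2, 0.549, 1.09 and 1.98 in AE9a+Meis2, and 0.591 and 0.793 in AE9a. The 3 AE+Meis2 libraries had the lowest ratios, and Itgb7 exceeded Itgb1 in AE9a+Meis2 replicates 2 and 3.

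The 3 comparisons share libraries, since each group enters 2 of them. In AE9a+Meis2 over AE9a, which asks what Meis2 adds to AE9a, 0 of 10 members passed an adjusted p of 0.05 (limma over 12565 genes; 0.0478% of all genes tested passed), and 1, Itgax, had an unadjusted p under 0.05 (3.06% of all, and 1.13% on the lower side). The libraries of both groups did not overlap for 3 members, Itgam and Itga5 on the higher side and Itga4 on the lower, where 23.8% of all genes tested did not overlap (13.1% on the higher and 10.7% on the lower side). In AE+Meis2 over AE9a+Meis2, which compares the 2 forms of the fusion in marrow with added Meis2, at unequal Meis2 levels, 0 of 10 passed (0.0398% of all) and 0 had an unadjusted p under 0.05 (7.15% of all). Here the libraries did not overlap for 2 members, Itga4 higher and Itga5 lower, where 13.5% of all genes did not (7% on the higher and 6.49% on the lower side). In AE+Meis2 over AE9a, 0 of 10 passed (0.0318% of all), 0 had an unadjusted p under 0.05 (5.98%) and 0 did not overlap (18.6%). The moderated F test over the 3 groups called 0 members (0.0557% of all genes), with adjusted p between 0.95 and 1.00. These shares do not set the members apart from other genes. The transduced genes did not pass in this fit either. Meis2 differed by 6.20 in AE9a+Meis2 over AE9a (limma adjusted p = 0.082) and by 1.75 in AE+Meis2 over AE9a (0.83). Runx1t1 differed by 2.91 in AE+Meis2 over AE9a+Meis2 (0.56). Without the library labelled AE+Meis2 replicate 1, this Runx1t1 difference was 4.01 and passed (limma adjusted p = 0.011). Meis2 in AE9a+Meis2 over AE9a then also passed, at 6.20 (0.034). Meis2 in AE+Meis2 over AE9a did not, at 2.42 (0.25). With all 8 libraries the test missed differences of this size, so 0 members passing does not show that their levels were alike. Without AE+Meis2 replicate 1 it still missed the Meis2 difference of 2.42, and 0 members passed there too.

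The median difference over the 10 members was 0.19 in AE9a+Meis2 over AE9a, -0.07 in AE+Meis2 over AE9a+Meis2 and 0.11 in AE+Meis2 over AE9a, where the medians of all genes tested were -0.0011, 0.04 and 0.06. The intervals in the plot of differences show what could not be seen at this spread: for Itgam, Itgal, Itgb2, Itgb7 and Itgax they reach beyond a log2 of 2 in at least 1 direction between AE9a+Meis2 and AE9a. Without AE+Meis2 replicate 3, 4 members had an unadjusted p under 0.05 in AE+Meis2 over AE9a+Meis2 and 0 an adjusted one.

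**Figure D3:**
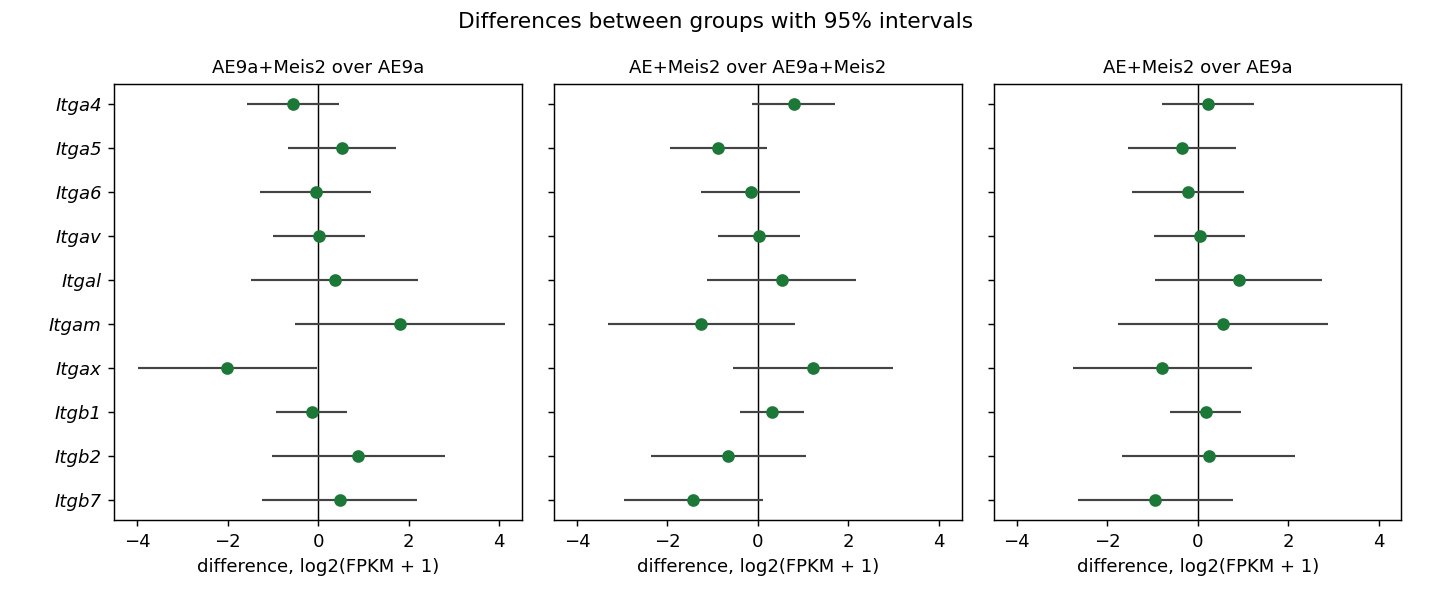
Log2(FPKM + 1) differences of the 10 members in the 3 comparisons, with 95% intervals from limma as lines. The interval of Itgax in AE9a+Meis2 over AE9a (-3.98 to -0.03) is the only one of the 30 that lies off 0, and after adjustment over all genes it does not pass.

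Other integrin subunits were mostly low. Of 17 listed, 10 passed the filter on low values, and 0 of these passed the test in any comparison; 6 were higher and 4 lower in AE9a+Meis2 over AE9a. Itga1, a collagen receptor chain, had the smallest p among them. It had 0.359, 0.776 and 0.798 FPKM in AE+Meis2, 4.13, 6.84 and 5.48 in AE9a+Meis2, and 1.31 and 1.51 in AE9a, so that the 3 groups did not overlap. The share of all genes with 3 separate groups was not counted. Itga1 was named for its small p, so separate groups go with the choice. Its log2 difference was -1.97 ± 0.25 for AE+Meis2 over AE9a+Meis2 and 1.41 ± 0.28 for AE9a+Meis2 over AE9a (limma adjusted p = 0.080 and 0.67). The call of the first depends on the scaling: with small RNA entries left out and libraries rescaled it was -2.12 (limma adjusted p = 0.049, with 0.059 to 0.55 in the other settings), and without AE+Meis2 replicate 1 it was -1.84 (0.17). Itga7, a laminin receptor chain, was higher in all 3 AE+Meis2 libraries (2.90, 13.8 and 1.44 FPKM) and all 3 AE9a+Meis2 libraries (2.82, 5.89 and 5.95 FPKM) than in AE9a (0.647 and 0.239 FPKM), without passing. Both AE9a values lay under the filter minimum of 1 FPKM. Itga7, like Itga9 and Itgad, was also named for a small p, so separate groups go with the choice. Itga9 had 5.21, 1.22 and 1.38 FPKM in AE+Meis2, 2.09, 2.15 and 2.32 in AE9a+Meis2, and 4.94 and 8.54 in AE9a. Itgad, another partner of Itgb2, was highest where Itgax was highest, at 7.61 FPKM in AE9a replicate 2, and between 0.255 and 2.35 FPKM in the other 7 libraries.

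Of 24 integrin ligands listed, 13 were tested. Fn1, fibronectin, the ligand of Itga5 and Itga4, had 59.0, 80.8 and 57.1 FPKM in AE+Meis2, has a listed 0 in each of the 3 AE9a+Meis2 libraries, and had 99.8 and 223 in AE9a. Its adjusted p was under 0.05 by limma in both comparisons with AE9a+Meis2, as for no other listed gene, but this rests on those zeros. Eef1a1, a translation elongation factor that every cell uses, is likewise listed at 0 in the same 3 libraries and at 20 FPKM or more in the other 5, and these were the only 2 genes of the table with that pattern. A 0 of this kind can be a failed estimate, which was not tested, so no fold is given and no change of Fn1 is read from it. Vcam1, the ligand of Itga4, had 13.6, 4.59 and 29.3 FPKM in AE+Meis2, 6.44, 2.15 and 2.40 in AE9a+Meis2, and 8.29 and 13.6 in AE9a. The 3 AE9a+Meis2 libraries lay below both AE9a libraries, a difference of -1.43 ± 0.71 that did not pass (limma adjusted p = 1). Vcam1 was named for a small p of the F test, so separate groups go with the choice. Icam1, a ligand of the Itgal and Itgam integrins, stayed between 5.66 and 21.1 FPKM in all libraries. Madcam1, the ligand of the Itgb7 integrin, was listed at 0 in 6 of 8 libraries and at most at 0.362 FPKM. Thbs1, thrombospondin, ranged from 1.38 to 36.1 FPKM with no adjusted p under 0.05.

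The proteins that switch integrins on act inside the cell on the tail of the beta chain. Of 22 listed activators 19 were tested and 0 passed in any comparison. In AE9a+Meis2 over AE9a 16 were higher and 3 lower, with a median of 0.26. Of all genes tested 6259 were higher and 6300 lower there, with a median of -0.0011. The lean is not particular to activators: of 5 leukocyte identity genes 4 were higher and 1 lower, with a median of 0.41. Fermt3 (kindlin-3), which blood cells need to activate integrins, ranged from 174 to 202 FPKM over the 8 libraries, a 1.16-fold range. Tln1 (talin) had 105, 110.1 and 176 FPKM in AE+Meis2, 146, 141 and 169.7 in AE9a+Meis2, and 81.0 and 135 in AE9a. Rap1a had 98.1, 103 and 116 FPKM in AE+Meis2, 86.3, 74.8 and 76.9 in AE9a+Meis2, and 92.9 and 91.8 in AE9a, lowest in the 3 AE9a+Meis2 libraries. Rap1a was named for the smallest p of the F test in this list, so separate groups go with the choice. The next by the F test, Rapgef1 and Rap1b, had adjusted p of 0.99.

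Among 11 inhibitors of integrin activation, all tested, 0 passed. In AE9a+Meis2 over AE9a 9 were higher and 2 lower, a lean like that of the activators. Rasa3, which switches off Rap1, had 30.5, 13.9 and 43.4 FPKM in AE+Meis2, 64.7, 51.0 and 72.9 in AE9a+Meis2, and 34.9 and 24.9 in AE9a. Rasa3 was named for a small p of the F test, so separate groups go with the choice. The AE9a+Meis2 libraries were the 3 highest. The differences of 1.05 ± 0.45 over AE9a and -1.20 ± 0.40 for AE+Meis2 over AE9a+Meis2 did not pass (limma adjusted p = 1 and 0.62). The second was -1.30 with AE+Meis2 replicate 1 left out. Rap1gap2, which also switches off Rap1, had group means of 6.28 FPKM in AE+Meis2, 12.2 in AE9a+Meis2 and 4.77 in AE9a (F test of limma, adjusted p = 0.79), and Sipa1l1 and Dok1 had adjusted p of 0.99. Of the adhesion complex and signalling genes 19 of 22 were tested and 0 passed, with 15 higher and 4 lower in AE9a+Meis2 over AE9a. Ilk, the kinase-like scaffold of integrin adhesions, had 118, 161 and 158 FPKM in AE+Meis2, 86.7, 87.7 and 105 in AE9a+Meis2, and 63.0 and 79.6 in AE9a. The 3 groups did not overlap in it. Ilk was named for the smallest p of the F test in this list, so separate groups go with the choice. AE+Meis2 over AE9a differed by 1.02 ± 0.22 in Ilk (limma adjusted p = 0.36), or by 1.16 with replicate 1 of AE+Meis2 left out (0.17). Tgfb1i1, Tns3 and Parvb, the next in this list, had adjusted p of 0.81 to 0.94 by the F test.

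Of 15 rolling and homing genes 14 were tested and 0 passed. Ccr2, the receptor that brings monocytes out of the marrow, had 23.3, 25.3 and 68.8 FPKM in AE+Meis2, 87.3, 96.9 and 142 in AE9a+Meis2, and 97.2 and 72.0 in AE9a. Ccr2 was named for the smallest p of the F test in this list, so separate groups go with the choice. All AE+Meis2 libraries lay below all others. The differences were -1.60 ± 0.43 from AE9a+Meis2 and -1.26 ± 0.48 from AE9a (limma adjusted p = 0.51 and 0.77). They were -1.32 and -0.98 with replicate 1 of AE+Meis2 left out. Cxcr4, which retains cells in the marrow, had 54.5, 197 and 168 FPKM in AE+Meis2, 409, 137 and 114 in AE9a+Meis2, and 51.9 and 71.3 in AE9a. Cx3cr1 and Ccr9 had adjusted p of 0.99 by the F test.

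Markers of other cells were highest or lowest in the same libraries as several members. The summed FPKM of 9 neutrophil markers, among them Ltf and Csf3r, was 5366, 703 and 59742 in AE+Meis2, 1488, 4356 and 16873 in AE9a+Meis2 and 2256 and 7896 in AE9a. AE+Meis2 replicate 3, with the highest Itgb2, Itgam and Itgal, also had the highest sum, and AE+Meis2 replicate 2, with the lowest Itgb2 and Itgam, the lowest. Between these extremes the order differed. AE9a+Meis2 replicate 1 had a low sum of 1488 with Itgam at 195 and Itgb2 at 205 FPKM. AE9a replicate 2 had a higher sum of 7896 with Itgam at 65.0 and Itgb2 at 134 FPKM. The summed FPKM of 11 monocyte and macrophage markers was 1430, 967 and 10053 in AE+Meis2, 5287, 2900 and 3779 in AE9a+Meis2 and 1882 and 1718 in AE9a, so it separated AE9a+Meis2 from AE9a in the same direction as Itgam. The order of the libraries by this sum is the one of Lyz2 alone. Lyz2 had 613, 555 and 9350 FPKM in AE+Meis2, 3546, 1980 and 2993 in AE9a+Meis2, and 1186 and 1142 in AE9a. Of these 11 markers 6 were higher and 5 lower in AE9a+Meis2 over AE9a and 0 passed. None of the neutrophil or monocyte markers was at 0 in any library, and their part in the Itgam and Itgb2 values was not tested. The 7 granulocyte precursor markers summed to 322 to 6492 FPKM in AE+Meis2, 618 to 3571 in AE9a+Meis2 and 459 to 1218 in AE9a.

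**Figure D4:**
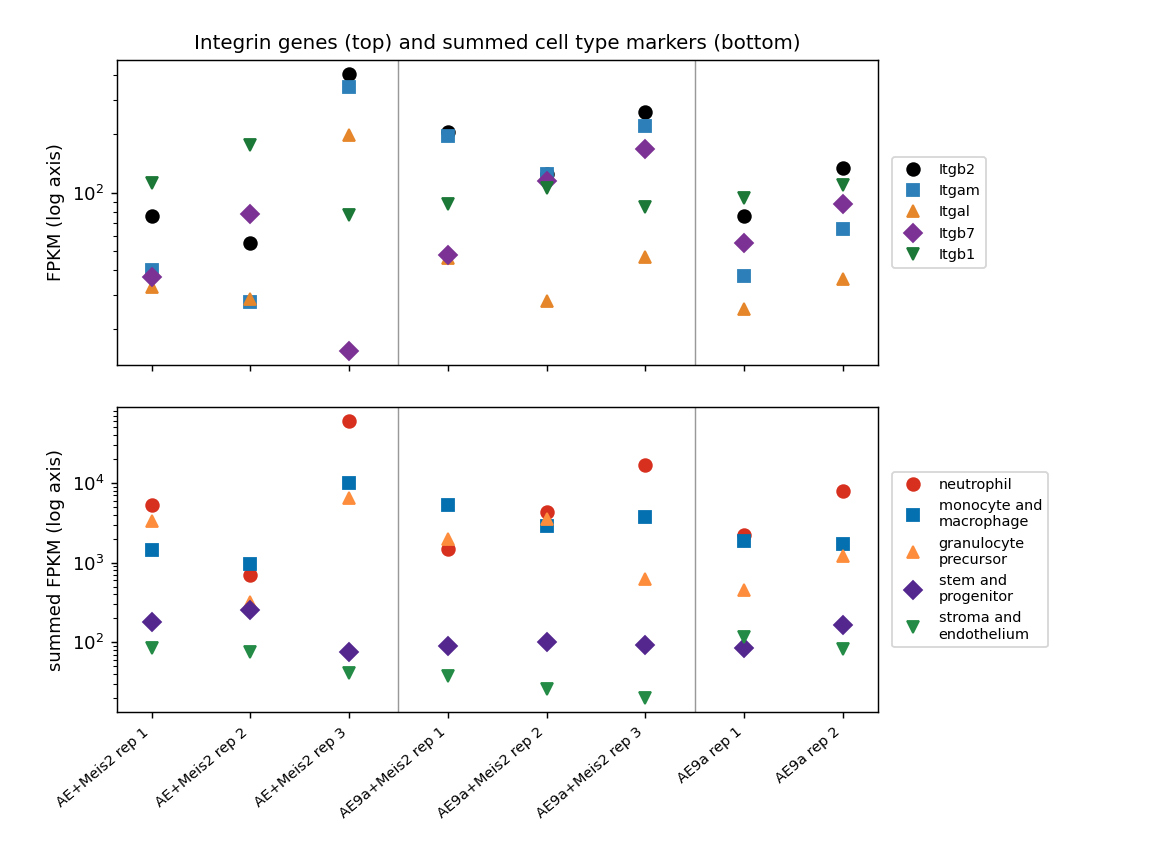
Top, FPKM (log axis) of 5 members in each library; bottom, summed FPKM (log axis) of 5 marker lists in the same libraries, with lines between the groups (AE+Meis2, AE9a+Meis2, AE9a). AE+Meis2 replicate 3 is the highest in Itgb2, Itgam, Itgal and the neutrophil sum (59742) and the lowest in Itgb7 and Itgb1.

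Progenitor and stroma markers were high or low with other members. The 7 stem and progenitor markers, Kit and Cd34 among them, summed to 179, 256 and 74.98 FPKM in AE+Meis2, 89.6, 101 and 92.96 in AE9a+Meis2, and 84.5 and 164 in AE9a. AE+Meis2 replicate 2 had both the highest sum and the highest Itga4 and Itgb1, and AE+Meis2 replicate 3 both the lowest sum and the lowest Itgb7 and Itgb1. That order is the one of Kit alone, which had 46.6, 224 and 16.3 FPKM in AE+Meis2. The other 6 markers summed to 133, 31.9 and 58.6 FPKM there, and Cd34 had 51.5, 8.09 and 32.5 FPKM, both lowest in replicate 2. Megakaryocyte and platelet markers summed to 51.5, 118 and 12.4 FPKM in AE+Meis2, against 8.30 to 13.4 FPKM in AE9a+Meis2 and 17.3 to 20.7 FPKM in AE9a. Their order within AE+Meis2 was that of Itga2b (CD41), the platelet integrin chain, which was at 53.5, 255 and 5.66 FPKM there. Stroma and endothelium markers summed to 41.1 to 83.9 FPKM in AE+Meis2, 19.8 to 37.3 FPKM in AE9a+Meis2 and 82.5 to 117 FPKM in AE9a, lowest in the group with the lowest Itga4. The 7 dendritic cell markers summed to 264 to 443 FPKM in AE+Meis2, 137 to 799 FPKM in AE9a+Meis2 and 324 to 426 FPKM in AE9a. The highest sum was not in the library with the highest Itgax. Most of this sum was Cd74 alone, with 254 to 426 FPKM in AE+Meis2, 79.1 to 760 in AE9a+Meis2 and 302 to 408 in AE9a. The order of the libraries by the sum is the one of Cd74. Among these lists Cd209a, Gp1bb and Mecom were each at 0 in 1 library, and the part of these cells in the member values was not tested. Mast cell and basophil markers summed to 1103 to 2817 FPKM in AE+Meis2, 513 to 1351 in AE9a+Meis2 and 819.99 to 1722 in AE9a, and erythroid markers to 239 to 2914 FPKM in AE+Meis2, 666 to 1661 in AE9a+Meis2 and 847 to 2244 in AE9a. B cell markers stayed at or under 112 FPKM and T and NK cell markers at or under 123 FPKM in every library, and of all 11 marker lists 0 genes passed in any comparison.

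The 3 members with the widest range were also described by the genes most like them over the 8 libraries, by Pearson's r of log2(FPKM + 1) among 11454 genes. The points share library depth and scaling, and r is given as a description. Nearest to Itgax were Nr1h3 (r = 0.97), a sterol-sensing nuclear receptor of macrophages, Cd83 (0.96), a surface protein of mature dendritic cells, and Bcl2a1d (0.93), a survival gene, each highest in AE9a replicate 2. Among the nearest to Itgam were Mpzl3 (0.98) and Slc16a7 (0.98), a monocarboxylate transporter. Nearest to Itgb7 were Arl4d (0.97), a small GTPase, Cd97 (0.97), an adhesion receptor of leukocytes, and Pepd (0.97), a dipeptidase.

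Members were also set against Ptprc, the leukocyte-wide gene. The ratio of Itgam to Ptprc in FPKM was 0.482, 0.701 and 1.18 in AE+Meis2, 2.01, 1.53 and 1.70 in AE9a+Meis2 and 0.519 and 0.887 in AE9a, highest in the 3 AE9a+Meis2 libraries. The ratio of Itgal to Ptprc ran from 0.396 to 0.721 in AE+Meis2, from 0.337 to 0.478 in AE9a+Meis2 and from 0.349 to 0.491 in AE9a, so the groups overlapped. Ptprc itself had 82.9, 39.4 and 298 FPKM in AE+Meis2, 97.3, 82.1 and 129.6 in AE9a+Meis2, and 72.1 and 73.3 in AE9a.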

How the data were processed

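Total RNA of 8 marrow libraries was prepared with the Illumina TruSeq kit, per the labels' protocols. The authors deposited 1 table of FPKM per gene and library. TopHat, Cufflinks and Cuffdiff with build mm10 are named in the submitters' processing notes; the sources used here do not give their versions, the annotation or any scaling between libraries. FPKM are not counts, so depth in reads is unknown and counting intervals could not be had. The most common ratio of low values (FPKM up to 1) put relative depth over a 10.1-fold range, a rough estimate since that ratio held 3.76% to 10.9% of genes. Low values, such as those of Itgax, are less precise in the shallower libraries.

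Genes with at least 1 FPKM in at least 2 libraries (12565) were tested on log2(FPKM + 1), which understates the change of low genes. One limma model (version 3.58.1, R 4.3.3) with a coefficient for each group and an intensity trend took in all 8 libraries, with Benjamini-Hochberg adjustment over all genes tested (threshold 0.05); ± after a difference is the standard error. The fit was tested on simulated data. Sample titles gave the groups and replicate numbers, and 0 columns of per-sample values were left out. No samples were dropped or imputed outside the named alternatives, and no libraries held identical values.

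The members and the gene lists were chosen with earlier results of these data known. The text names all members, Meis2, Runx1t1 and Fn1, up to 4 genes with the smallest p of the F test from each list other than the marker lists, which are given as sums, and the 3 genes nearest to each of the 3 most variable members, 1 of which is not reported here. Itga2b, Eef1a1, Fermt3, Madcam1, Ptprc, Csf1r, Ltf, Lyz2, Kit, Cd34, Cd74, Fabp4 and the marker genes at 0 are outside that rule and were named after their values were seen. Adgre1 was matched as Emr1 through RefSeq synonyms. Gene positions are from GENCODE vM21 (GRCm38, the assembly of mm10) and promoters from RefSeq (GRCm38.p6). Alternatives changed the pseudocount, filter, scaling, trend, block and the libraries in the fit. Tables used pandas 2.3.3 and NumPy 2.4.6 in Python 3.11.15, and plots matplotlib 3.10.9.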

Additional observations from a re-analysis of the deposited data

How the results depend on the processing

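Across 19 other settings 0 of 10 members passed in any comparison, or in the F test where it was run, and 530 of 570 refits of the 30 member differences had the same sign. The other 40 were of small or unsteady differences, and their cause was not tested. The labels give no meaning that libraries of the same replicate number share. Deviations of same-numbered libraries correlated between -0.03 and 0.13, and the highest of all pairs, 0.13, was a same-numbered one. Deviations sum to 0 within groups of 2 or 3 libraries, so these values cannot settle whether the numbers mark a batch. With the replicate block 0 members passed. Under that block the log2 difference turned to -0.13 for Itgal, -0.079 for Itgav, 0.035 for Itgb1 and -0.0062 for Ccr2 (AE9a+Meis2 over AE9a), and to -0.079 for Itgam, -0.054 for Itgav and -0.31 for Itgb2 (AE+Meis2 over AE9a). With small RNA entries left out and libraries rescaled, which moved the median of all genes by -0.10, -0.18 and -0.27, Itgav became -0.077 (AE9a+Meis2 over AE9a) and -0.21 (AE+Meis2 over AE9a+Meis2), and in AE+Meis2 over AE9a Itga4 became -0.14, Itgav -0.29, Itgb1 -0.19 and Itgb2 -0.13. With equal medians Itgav was -0.016, -0.012 and -0.028 in the 3 comparisons. With quantile scaling Itgb1 was -0.074 and Itgb2 -0.10 in AE+Meis2 over AE9a. Without AE9a+Meis2 replicate 3 and AE9a replicate 1 together, Itga6 was 0.071, Itgal -0.0012 and Itgb7 -0.23 in AE9a+Meis2 over AE9a, Itgav -0.14 in AE+Meis2 over AE9a+Meis2, and Itgb2 -0.16 and Rasa3 0.087 in AE+Meis2 over AE9a. With 1 library left out in turn, ranges that crossed 0 were, in AE+Meis2 over AE9a, -0.25 to 0.51 for Itga4, -0.70 to 0.20 for Itga5, -0.62 to 0.31 for Itga6, -0.56 to 1.25 for Itgam, -2.12 to 0.56 for Itgax, -0.31 to 0.40 for Itgav, -0.13 to 0.46 for Itgb1, -0.64 to 0.79 for Itgb2 and -0.49 to 0.29 for Rasa3. In AE+Meis2 over AE9a+Meis2 they were -0.57 to 0.36 for Itga6, -0.35 to 1.02 for Itgal and -0.33 to 0.38 for Itgav, and in AE9a+Meis2 over AE9a -0.27 to 0.12 for Itga6 and -0.20 to 0.18 for Itgav. Where a library was left out of AE9a, the lone one is assumed to vary like the other groups. Members without overlap between groups, counted again after the data were seen with 1 library left out, numbered 3 to 7, 2 to 5 and 0 to 3, where fewer libraries overlap less readily in all genes (23.8% to 54.5%, 13.5% to 31.8% and 18.6% to 45.7%). The ends of these ranges are not all of the same setting. The 7 came without AE9a+Meis2 replicate 2, where 32.8% of all genes did not overlap. The highest counts of the other 2 comparisons, 5 and 3, stood beside 31.8% and 36%. Genes passing in AE+Meis2 over AE9a+Meis2 numbered 5, but 23 without AE+Meis2 replicate 3 and 13 with small RNA entries left out; in AE+Meis2 over AE9a they numbered 4, but 0 with the replicate block. Itga1 passed in AE+Meis2 over AE9a+Meis2 under 1 setting (-2.12, limma adjusted p = 0.049, small RNA entries left out). Depth in reads is unknown, so no limit is set from it.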
